A study of Mus musculus with 4 samples.

Results

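Open chromatin was described at the genes of 9 transcription factors that divide the ventral neural tube into progenitor domains: Olig1, Olig2, Nkx6-1, Nkx6-2, Nkx2-2, Pax6, Irx3, Dbx1 and Dbx2. Intervals of the 4 peak lists that shared at least 1 bp were joined into regions. Each region went to the protein-coding gene body that holds its midpoint (the shortest if bodies are nested), or else to the nearest body within 100 kb on the mouse build mm10. This gave 161 regions at the 9 genes, of 165822 regions assigned to any gene and 199576 regions in all. The assay was ATAC-seq, which uses a transposase to mark DNA that is open to it. It was run on cervical motor neurons sorted from mouse embryos at embryonic day 12.5 by the ChAT::GFP transgene, a reporter of cholinergic neurons that all libraries carry. There were 2 libraries from Hoxa5-deficient embryos and 2 from control littermates, named as biological replicates. The labels give neither the Hoxa5 allele, nor the genotype of the controls beyond the reporter, nor the number of embryos behind a library, so the lists offer no check of the genotype at Hoxa5 itself.

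In the ventral neural tube, progenitors read a gradient of the signal Sonic hedgehog and turn on different sets of these factors. Pax6, Irx3, Dbx1 and Dbx2 are repressed by the signal, whereas Nkx2-2, Nkx6-1, Nkx6-2 and Olig2 are induced by it, and pairs of them repress each other across domain borders. Olig2 marks the motor neuron progenitor domain and is largely turned off as the cells become neurons. Motor neurons thus descend from progenitors that used some of these genes and repressed others.

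The Hoxa5-deficient lists held 127458 and 138248 intervals, and the control lists held 115089 and 113505. Sequencing depth is not stated. The lowest local background that the lists imply, a stand-in for depth, was 5.14 and 6.06 tags in Hoxa5-deficient libraries and 5.43 and 4.39 tags in controls; counts of regions were not corrected for it. The label of motor neurons was checked at promoters, taken as 250 bases before to 50 after a RefSeq start. Of the 9 motor neuron markers with a promoter in the table, 6 had a peak there in all 4 libraries (Isl1, Isl2, Lhx3, Lhx4, Mnx1 and Slc18a3). Chat had none in that window in any library, although 9 of the 22 regions assigned to Chat were found in all 4. The 6 of 9 are close to the 59.2% of all 21263 promoters of protein-coding genes with a peak in all 4. They therefore do little to check the label. Promoters of all 8 general neural progenitor genes with an entry, Sox1, Sox2, Nes and Hes5 among them, also had a peak in all 4, as did all 10 dorsal progenitor genes with an entry. Of 6 markers of blood, muscle, endothelium and other cells outside the neural tube, 0 did. Of these, 3 (Gata1, Hba-a1 and Myog) had a promoter peak in no library, and the others had one in some libraries. Among the 81 regions assigned to the 10 genes of this list, 34.6% were found in all 4, against 34.7% of all assigned regions. How far cells other than motor neurons contributed to the results was not tested.

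Promoter sequences are shown because peaks over the start differed among the 8 genes with a start in the table (Olig1 had none there). A peak lay over the promoter in all 4 libraries at Olig2, Nkx6-1, Nkx6-2, Irx3 and Dbx2. Dbx1 had one in Hoxa5-deficient library 2 and control library 1 only, both Pax6 starts in the table had one in 3 libraries, and the Nkx2-2 start in the table, which lies inside the gene body, had none. Thus 5 of the 9 member starts had a peak in all 4 libraries, near the 59.2% over all promoters. Over all promoters, 35.9% had a peak in no library. The 250 bases before the start are printed for 4 promoters open in every library and for Dbx1, from RefSeq on GRCm38.p6, the assembly also called mm10. They are read 5′ to 3′ on the strand of the gene. Capitals mark matches, on either strand, to any of 8 short motifs: TAATTA (the homeodomain core), TGATNNAT (the type bound by Hox with Pbx), CATATG and CAGCTG (E-boxes), ACCACCC (Gli type), AAGTG (Nkx2 type), CATTGT (Sox type) and GGGCGG (Sp type).
Olig2, chr16:91225300-91225549, plus strand: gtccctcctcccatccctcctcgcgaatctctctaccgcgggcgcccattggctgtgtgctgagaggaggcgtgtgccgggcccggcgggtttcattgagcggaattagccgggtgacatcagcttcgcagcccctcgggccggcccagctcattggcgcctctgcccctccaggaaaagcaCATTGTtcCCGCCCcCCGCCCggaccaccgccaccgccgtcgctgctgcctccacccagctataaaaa
Nkx6-1, chr5:101664712-101664961, minus strand: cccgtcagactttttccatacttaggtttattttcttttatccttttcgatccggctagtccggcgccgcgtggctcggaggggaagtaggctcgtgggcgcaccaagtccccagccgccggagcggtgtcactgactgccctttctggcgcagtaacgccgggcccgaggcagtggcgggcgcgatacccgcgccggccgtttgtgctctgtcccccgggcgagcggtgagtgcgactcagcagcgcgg
Nkx6-2, chr7:139582798-139583047, minus strand: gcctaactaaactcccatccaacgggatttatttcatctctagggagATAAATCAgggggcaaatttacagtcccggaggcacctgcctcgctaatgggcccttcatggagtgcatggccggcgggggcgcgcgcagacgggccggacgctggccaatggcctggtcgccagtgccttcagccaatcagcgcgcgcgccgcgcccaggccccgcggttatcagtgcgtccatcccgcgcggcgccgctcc
Irx3, chr8:91801655-91801904, minus strand: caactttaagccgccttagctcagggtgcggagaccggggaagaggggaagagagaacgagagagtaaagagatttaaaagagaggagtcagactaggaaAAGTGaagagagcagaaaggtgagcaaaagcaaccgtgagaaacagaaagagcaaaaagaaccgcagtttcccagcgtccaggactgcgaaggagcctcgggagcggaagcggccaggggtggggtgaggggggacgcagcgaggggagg
Dbx1, chr7:49636836-49637085, minus strand: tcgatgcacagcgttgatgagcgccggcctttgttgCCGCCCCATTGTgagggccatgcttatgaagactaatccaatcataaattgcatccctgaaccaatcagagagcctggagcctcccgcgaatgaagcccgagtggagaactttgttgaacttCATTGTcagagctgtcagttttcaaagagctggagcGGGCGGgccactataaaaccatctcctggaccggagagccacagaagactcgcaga
In the Dbx1 sequence, the first capitals are 2 adjoining matches, and the Nkx6-1 sequence holds none. The homeodomain core was in 0 of 9 member promoters and in 4.31% of all promoters. CATATG (2.91% of all), CAGCTG (12.1%) and ACCACCC (3.92%) were also in 0 of 9. The Hox and Pbx type was in 1 of them, at Nkx6-2, and in 6.68% of all. The Nkx2 type was in those of Pax6, Nkx2-2, Irx3 and Dbx2, and in 39.7% of all. The Sox type matched at Olig2, Dbx1 and Dbx2, against 9.35% of all promoters, and the Sp type at Olig2, Dbx1 and Nkx2-2, against 42.6%. These are matches of letters in a window and do not show binding. Median GC content was 58.8% in the 9 member promoters and 55.6% in all.

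The number of regions at these genes overlapped between genotypes. Hoxa5-deficient libraries had 93 and 108 of them, and controls had 99 and 98. As a share of the regions in each library this was 0.0758% and 0.0807% in Hoxa5-deficient libraries, against 0.0902% and 0.0918% in controls. The shares did not overlap, while the counts did, since the Hoxa5-deficient lists held more regions elsewhere. This was not particular to the 9 genes. The share of regions assigned to any gene was 82.7% and 83.1% in Hoxa5-deficient libraries, against 86.6% and 85.4% in controls. For dorsal progenitor genes it was 0.112% and 0.0986%, against 0.140% and 0.133%. The shares of motor neuron markers overlapped, at 0.0652% and 0.0702% against 0.0674% and 0.0646%. With 2 libraries a genotype, no exact permutation test of such a value can pass 0.05: the smallest two-sided p is 0.333.

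Irx3, a repressor that bounds the motor neuron domain dorsally, had the most regions, 34. In Hoxa5-deficient libraries 18 and 24 were found, and in controls 19 and 20. Pax6, which opposes Nkx2-2, had 25, with 13 and 16 in Hoxa5-deficient libraries and 19 and 19 in controls. The Pax6 counts did not overlap between genotypes. Nkx6-1, an inducer of motor neuron fate, leaned the other way, with 16 and 17 regions in Hoxa5-deficient libraries and 12 and 13 in controls. Olig2 had 9 and 10 in Hoxa5-deficient libraries, against 8 and 5 in controls, again without overlap. As a share of all regions in each library, Olig2 had 0.00733% and 0.00747% against 0.00729% and 0.00468%, nearly tied with control 1. For Nkx6-1 the shares were 0.0130% and 0.0127% against 0.0109% and 0.0122%, and for Pax6 0.0106% and 0.0119% against 0.0173% and 0.0178%. How many of all genes have counts without overlap was not counted. In Olig1, Nkx6-2, Nkx2-2, Dbx1 and Dbx2 the libraries of the genotypes overlapped or tied, with from 3 to 13 regions in any library.

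**Figure D1:**
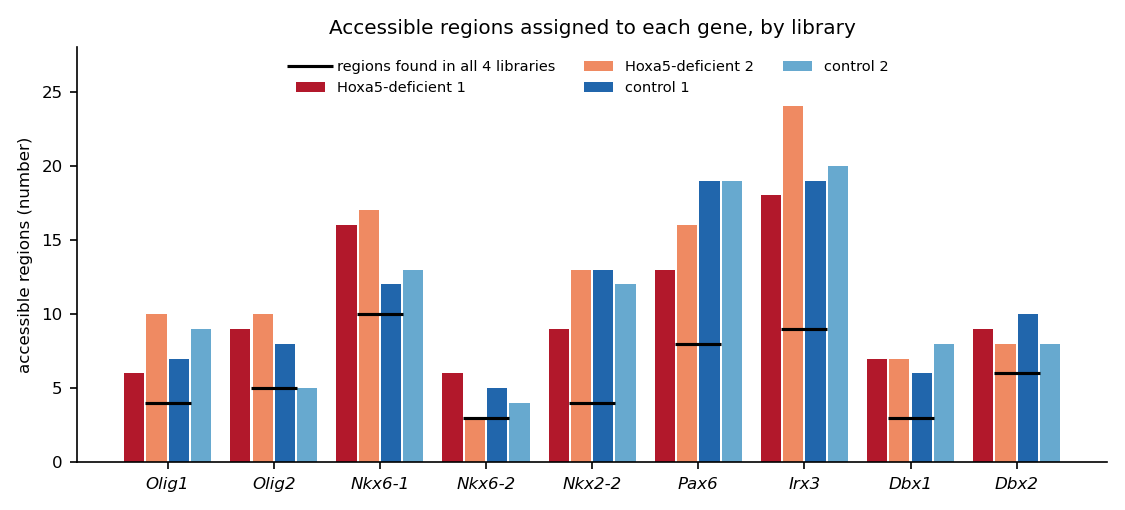
Number of accessible regions (y axis) assigned to each gene (x axis) in Hoxa5-deficient libraries (red) and control libraries (blue), 1 bar per library; black lines give the regions found in all 4 libraries. Nkx6-1 has 16 and 17 in Hoxa5-deficient libraries against 12 and 13 in controls, and Pax6 has 13 and 16 in Hoxa5-deficient libraries against 19 and 19 in controls.

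Of the 161 regions, 52 (32.3%) were found in all 4 libraries, against 34.7% of all assigned regions, 28 (17.4%) in 3 libraries, against 9.66%, and 56 (34.8%) in a single library, against 38.5%. Found in both Hoxa5-deficient libraries and neither control were 9 regions (5.59%), where the share over all assigned regions was 9.16%. Found in both controls and neither Hoxa5-deficient library were 8 (4.97%), where that share was 3.5%. A further 8 were found in exactly 1 library of each genotype (4.97%), against 4.48% over all. With a library left out, the other stands alone for its genotype and more regions count as found in one genotype. Regions of Hoxa5-deficient libraries alone then numbered 31 without Hoxa5-deficient library 1, 19 without Hoxa5-deficient library 2, 15 without control 1 and 14 without control 2. These were 19.3%, 11.8%, 9.32% and 8.70% of the member regions, against 21.6%, 16.9%, 12.1% and 12.4% over all. Regions of controls alone numbered 16, 17, 22 and 18 in the same order. These were 9.94%, 10.6%, 13.7% and 11.2%, against 5.10%, 5.33%, 11.6% and 13.8% over all, so their share stood above that over all except without control 2. With the same number of the strongest intervals taken from each list there were 10 of Hoxa5-deficient libraries (6.71%, against 7.54% over all) and 13 of controls (8.72%, against 4.95%).

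The regions found in one genotype lay mostly outside the genes, as did the member regions as a whole, of which 42 of 161 lay inside. Those of Hoxa5-deficient libraries were all outside, from 13.7 to 94.5 kb from the gene body, and those of controls from inside the gene to 64.0 kb away. Olig2 had a pair in Hoxa5-deficient libraries, upstream of the gene on chromosome 16. The stronger, 16.3 kb upstream (91208798 to 91209618), had the authors' −log10 p of 32.6 and 47.1, at percentiles of 76.3 and 77.6 among all regions of its list. It was the strongest of the 9. The other lay 13.7 kb upstream (91211708 to 91211954), at percentiles of 37.2 and 47.2.

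Nkx6-1 had another pair, at chromosome 5, 101571442 to 101572070 and 101683356 to 101683823. Their percentiles in the Hoxa5-deficient lists were 52.1 and 70.2 for the first and 40.5 and 37.4 for the second. Irx3 had 3 on its upstream side, between 30.3 and 94.5 kb from the gene (chromosome 8, 91831767 to 91832096, 91886772 to 91887517 and 91896041 to 91896290). Pax6 (chromosome 2, 105613208 to 105613763) and Dbx2 (chromosome 15, 95589458 to 95589942) had 1 each. The Pax6 region was weak in library 1, at percentile 22.2, and stronger in library 2, at 68.4.

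Of the 8 regions found in controls alone, 3 were also at Irx3. The strongest of these began just upstream of the Irx3 start, 0.395 kb from the gene to its midpoint (chromosome 8, 91801916 to 91802183), with −log10 p of 13.0 and 19.4. Its percentiles were 58.1 and 67.9 in the control lists. The other two lay 16.6 and 38.5 kb upstream (91818044 to 91818493 and 91840053 to 91840280) and were weak, at percentiles of 31.4 or less.

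Olig1, a relative of Olig2 in the same cluster, had 1 at chromosome 16, 91301339 to 91301881, with percentiles of 63.9 and 50.7 in controls. Nkx2-2 and Dbx2 had 1 each inside the gene (chromosome 2, 147180606 to 147181177, and chromosome 15, 95652909 to 95653324). Pax6 had 2, at chromosome 2, 105604762 to 105604999 and 105663161 to 105663390. The second was among the weakest peaks of the list of control library 1, at percentile 0.309. Dbx1, a factor of the dorsalmost ventral domain, and Nkx6-2 had none of either kind. One Dbx1 region, found in 3 libraries and chosen after its values were seen, was missing from Hoxa5-deficient library 2 (chromosome 7, 49634259 to 49634894).

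Strength was then compared in the 52 regions found in all 4 libraries. A peak's −log10 p depends on depth, so each library's peaks were ranked among the 65789 regions found in all 4 lists. The rank is given as a percentile, where 100 is the strongest peak. For tests the percentile was turned into a normal score, and limma compared the genotypes over all 65789 regions with Benjamini-Hochberg adjustment. The scores are relative: a region can also move because others do. Replicates are separate libraries, and p-values measure the spread between these.

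The shared regions of the 9 genes were weaker than the average shared region, with a median percentile of 34.8 against 47.1 over all (mean over the 4 libraries), and were of like width, with medians of 799.5 and 765 bp. In Hoxa5-deficient libraries the median percentile of the 52 was 35.4 and 32.0, against 45.0 and 42.4 in controls. The mean percentile was lower in Hoxa5-deficient libraries in 34 of 52 regions (65.4%), where 53.1% of all shared regions were lower. Both Hoxa5-deficient libraries lay below both controls in 23 (44.2%), against 32.8% over all, and above both in 12 (23.1%), against 29.1%; either was the case for 61.9% of all shared regions. The median score difference was −0.17 over the members and −0.03 over all shared regions. Counted by score difference, 33 of the 52 (63.5%) were lower, against 53.0% of all. Relative to all shared regions, this lean remained with own-list ranks and was absent with fold enrichment. With own-list ranks the median was −0.01 over the members and 0.08 over all, and 27 of the 52 (51.9%) were lower in Hoxa5-deficient libraries, against 39.4% of all. With fold enrichment ranked in place of −log10 p the median was −0.01 over the members and −0.04 over all, and again 27 were lower (51.9%), against 53.9%. Over the 52 regions, scores of the Hoxa5-deficient libraries correlated at r = 0.881 and those of controls at r = 0.851, and pairs across genotypes at r from 0.496 to 0.707. These are correlations across regions, which are not independent replicates. In sorted cells, fewer cells of a type and less open chromatin per cell cannot be told apart. Beside the members, the shared regions of 12 general neural progenitor genes had a median score difference of −0.38 and those of 12 dorsal progenitor genes −0.25; both were below the median over all with own-list ranks (−0.18 and −0.09) and fold enrichment (−0.17 and −0.16) as well. The part of such cells in the members' differences was not tested.

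Past an adjusted p of 0.05 were 4 of the 52 regions (7.69%), 1 higher and 3 lower in Hoxa5-deficient libraries, against 4.05% of all shared regions (2.4% higher, 1.65% lower). At an unadjusted p under 0.05 there were 20 (38.5%), against 28.5%. All 4 lay outside the genes, 3 of them in the Olig locus. The calls were narrow, here and over all regions. With fold enrichment ranked in place of −log10 p all 4 still passed (limma adjusted p from 0.0361 to 0.0484). The 4 ended when any 1 library was left out (adjusted p from 0.0919 to 0.183, limma), with ranks taken in each library's own list (0.0509 to 0.0770), and with windows around summits in place of intervals (0.0507 to 0.0535). In each of these fits limma called 0 of all shared regions too, so the loss is not particular to the 9 genes. With own-list ranks 21 of the 52 (40.4%) had an unadjusted p under 0.05 (limma), against 27.4% of all. No difference of the 4 changed sign with own-list ranks or summit windows. With 1 library left out none could, since the genotypes did not overlap in these 4 regions. Own-list ranks brought the Nkx6-1 difference to −0.71 and that between Olig2 and Olig1 to −0.72.

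**Figure D2:**
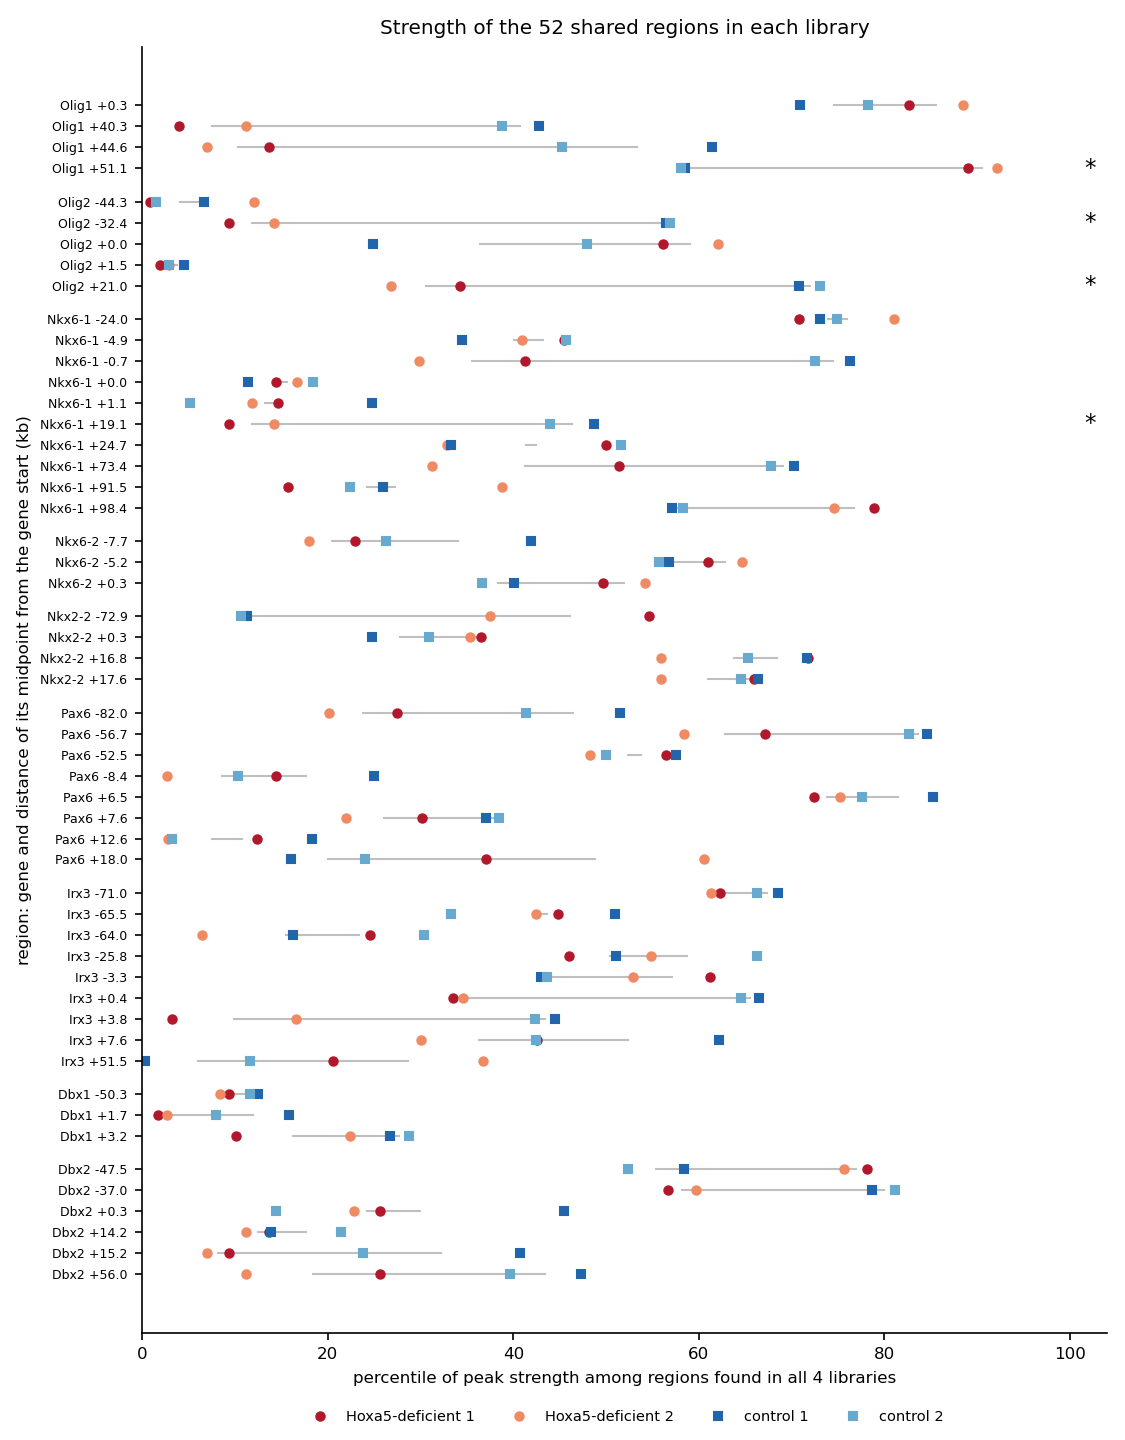
Percentile of peak strength (x axis) of each of the 52 shared regions in Hoxa5-deficient libraries (red circles) and control libraries (blue squares); rows give the gene and the distance of the region's midpoint from the gene start in kb (for Olig1, from its lower-coordinate end). Grey lines join the genotype means and asterisks mark an adjusted p under 0.05 (limma); the widest gaps without overlap are in the Olig locus, as at Olig2 −32.4 kb, with 9.38 and 14.2 in Hoxa5-deficient libraries against 56.4 and 56.9 in controls.

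Olig1 and Olig2, basic helix-loop-helix factors of motor neuron and oligodendrocyte progenitors, lie 41.1 kb apart on chromosome 16, so their regions are described as one locus. Upstream of Olig2, a region at 91192594 to 91193623 had percentiles of 9.38 and 14.2 in Hoxa5-deficient libraries, against 56.4 and 56.9 in controls. The controls were close together and far above both Hoxa5-deficient libraries. Its score difference was −1.36 (SE 0.144, limma adjusted p = 0.0448), and between −1.48 and −1.24 when 1 library was left out.

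Between Olig2 and Olig1, a region 21.0 kb from the Olig2 start (91246276 to 91246745) had percentiles of 34.3 and 26.8 in Hoxa5-deficient libraries and 70.8 and 73.1 in controls. Again the genotypes did not overlap. Its score difference was −1.09 (SE 0.139, limma adjusted p = 0.0463).

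Beyond Olig1 the direction changed along the sequence. At 91309897 to 91310279 the percentiles were 3.93 and 11.2 in Hoxa5-deficient libraries and 42.7 and 38.7 in controls (score difference −1.25, SE 0.225, limma adjusted p = 0.0640). At 91314154 to 91314633 they were 13.7 and 7.03 in Hoxa5-deficient libraries, against 61.5 and 45.2 in controls (−1.37, SE 0.227, limma adjusted p = 0.0587). These regions showed gaps as wide as those that passed, without passing; on the percentile scale the first did (−33.2 points, limma adjusted p = 0.0379).

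The last region of the locus, 51.1 kb from the lower end of Olig1 (91320307 to 91321511), went the other way. Its percentiles were 89.0 and 92.1 in Hoxa5-deficient libraries and 58.5 and 58.1 in controls, with the authors' −log10 p of 186 and 366 in Hoxa5-deficient libraries, against 31.8 and 26.9 in controls. It ranked near the top in Hoxa5-deficient libraries and near the middle in controls. The score rose by 1.11 (SE 0.132, limma adjusted p = 0.0454).

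Regions over the gene ends in the Olig locus were stronger in Hoxa5-deficient libraries, short of the threshold. Over the Olig1 end (91269388 to 91270753) percentiles were 82.7 and 88.4 in Hoxa5-deficient libraries, against 70.9 and 78.2 in controls (score difference 0.40, SE 0.166, limma adjusted p = 0.213). This was the strongest of the 52 regions by its mean over the libraries. Over the Olig2 promoter (91225164 to 91225950), whose sequence is printed above, they were 56.1 and 62.1 in Hoxa5-deficient libraries and 24.8 and 47.9 in controls (0.60, SE 0.254, limma adjusted p = 0.224). The controls differed from each other there by more than control 2 did from Hoxa5-deficient library 1. The difference was 0.283 without control 1 and 0.910 without control 2.

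**Figure D3:**
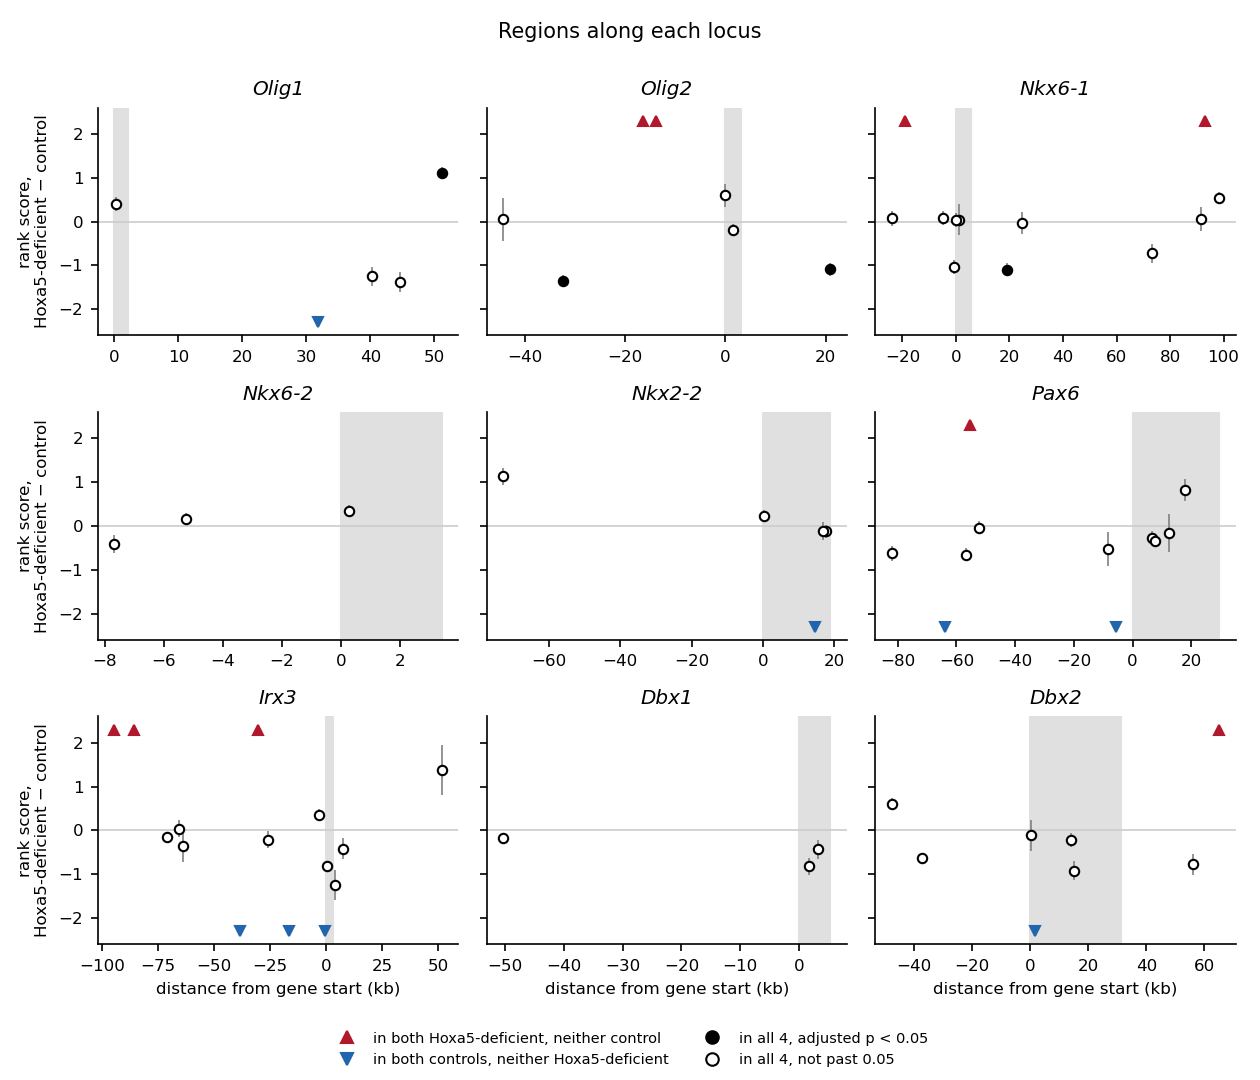
Regions along each gene by distance of their midpoint from the gene start in kb (x axis; for Olig1, from its lower-coordinate end), with the gene body shaded. Circles give the rank score difference, Hoxa5-deficient minus control, with its SE (y axis) for regions found in all 4 libraries, filled where the adjusted p is under 0.05; triangles at the top and bottom mark regions found in both libraries of one genotype alone. In the Olig2 panel filled circles at −1.36 and −1.09 flank the gene, with the Hoxa5-deficient pair at 16.3 and 13.7 kb upstream between them.

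Nkx6-1, a homeodomain repressor of the ventral domains that helps to induce Olig2, had the remaining call. The region lay beyond the far end of the gene, 19.1 kb from its start (chromosome 5, 101645116 to 101646107). Its percentiles were 9.38 and 14.2 in Hoxa5-deficient libraries, against 48.7 and 44.0 in controls (score difference −1.10, SE 0.150, limma adjusted p = 0.0485). The Hoxa5-deficient values are those of the region upstream of Olig2, because many peaks share a value of −log10 p. Both regions had 5.68 in library 1 and 8.79 in library 2. Over all shared regions between 50.8% and 63.9% of peaks in a library shared their value with another. The median of these shared values was between 12.5 and 18.4.

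Just upstream of Nkx6-1 (101665036 to 101665822) percentiles were 41.2 and 29.9 in Hoxa5-deficient libraries and 76.3 and 72.6 in controls (−1.03, SE 0.162, limma adjusted p = 0.0556). The promoter itself (101664402 to 101664974) was weak in every library, at 14.5 and 16.7 in Hoxa5-deficient libraries and 11.4 and 18.4 in controls. Its difference of 0.04 (SE 0.161, limma adjusted p = 0.894) was smaller than the spread between replicates. Of the 10 shared regions of Nkx6-1, 5 were lower and 5 higher in mean percentile. The strongest, 24.0 kb upstream (101688263 to 101689102), did not separate the genotypes, at 70.9 and 81.0 in Hoxa5-deficient libraries and 73.0 and 74.9 in controls (0.07, SE 0.164, limma adjusted p = 0.811).

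Nkx6-2, a close relative that acts partly in the place of Nkx6-1, had 3 shared regions and no call. Its promoter region (chromosome 7, 139581773 to 139583268) had percentiles of 49.7 and 54.2 in Hoxa5-deficient libraries and 40.1 and 36.6 in controls. The genotypes did not overlap, and the difference of 0.34 (SE 0.125) had a limma adjusted p of 0.177. The Nkx6-2 body overlaps the end of Inpp5a by 0.276 kb, so regions there have 2 possible genes.

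Nkx2-2, the factor of the most ventral of these domains, had 4 shared regions. The strongest inside the gene (chromosome 2, 147178118 to 147179131) did not separate the genotypes, at 71.8 and 55.9 in Hoxa5-deficient libraries and 71.6 and 65.3 in controls (−0.12, SE 0.20, limma adjusted p = 0.735). Over the upper end of the gene body (147194511 to 147195739) percentiles were 36.6 and 35.3 in Hoxa5-deficient libraries and 24.7 and 30.9 in controls (0.23, SE 0.132, limma adjusted p = 0.333). The widest difference was upstream, at 147267694 to 147268883. There the percentiles were 54.7 and 37.5 in Hoxa5-deficient libraries, against 11.3 and 10.6 in controls (1.13, SE 0.191, limma adjusted p = 0.0599). Both Hoxa5-deficient libraries lay well above the controls, which were nearly equal.

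Among the factors repressed by hedgehog, Irx3 came nearest to the threshold, at its own start. The region over the promoter printed above (chromosome 8, 91800709 to 91801786) had percentiles of 33.5 and 34.6 in Hoxa5-deficient libraries and 66.5 and 64.6 in controls. The replicates lay close together beside the gap between genotypes. The score difference of −0.81 (SE 0.116) just missed the threshold, with a limma adjusted p of 0.0510. Over the alternatives it ranged from 0.0291 to 0.193: it passed where only peaks with a −log10 q of at least 5 were kept (−1.04, limma adjusted p = 0.0406) and on the percentile scale (0.0291). It did not pass with own-list ranks (−0.50, 0.0792), fold enrichment (−0.68, 0.0783), summit windows (0.0558) or any library left out (0.107 to 0.193).

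Next to it, the region found in controls alone began just upstream, and a region beyond the far end of the gene (91797586 to 91798154) also had lower percentiles in Hoxa5-deficient libraries. That region had percentiles of 3.17 and 16.6 in Hoxa5-deficient libraries, against 44.5 and 42.3 in controls (−1.25, SE 0.333, limma adjusted p = 0.109). Farther off, at 91749642 to 91750706, a weak region had higher percentiles in Hoxa5-deficient libraries, at 20.6 and 36.7 against 0.330 and 11.6 in controls. Its difference of 1.37 had an SE of 0.573 and a limma adjusted p of 0.218, and it was 0.614 without control 1 and 2.14 without control 2. The region beyond the far end was at −0.804 without Hoxa5-deficient library 1. Regions inside Fto, the next gene, which is known to hold enhancers of Irx3, go to Fto under the rule and were not counted.

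Pax6, a paired-domain factor of neural progenitors, was lower on average in Hoxa5-deficient libraries in 7 of its 8 shared regions, and in 5 with own-list ranks or fold enrichment; none passed the test. Its strongest region inside the gene (chromosome 2, 105674902 to 105675819) had percentiles of 72.4 and 75.2 in Hoxa5-deficient libraries and 85.3 and 77.6 in controls (−0.27, SE 0.156, limma adjusted p = 0.345). It was −0.120 without control 1, −0.411 without control 2 and −0.086 with fold enrichment. The exception was a region farther into the gene (105686491 to 105687250), at 37.0 and 60.6 in Hoxa5-deficient libraries and 16.0 and 24.0 in controls (0.82, SE 0.261, limma adjusted p = 0.144, and 0.519 without Hoxa5-deficient library 2). A strong region 56.7 kb upstream, chosen after its values were seen (105611766 to 105612654), was at 67.2 and 58.4 in Hoxa5-deficient libraries and 84.6 and 82.7 in controls (−0.65, SE 0.143, limma adjusted p = 0.0820). Downstream, Pax6 overlaps the end of Elp4, and regions inside Elp4 were not counted.

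Dbx1 and Dbx2, homeodomain factors of the most dorsal of the ventral domains, had mostly weak shared regions. For Dbx1 all 3 were lower on average in Hoxa5-deficient libraries, and 2 of 3 with fold enrichment. The strongest (chromosome 7, 49633381 to 49633893) was at 10.1 and 22.4 in Hoxa5-deficient libraries and 26.7 and 28.7 in controls (−0.43, SE 0.215, limma adjusted p = 0.284). That difference was −0.169 without Hoxa5-deficient library 1, −0.685 without Hoxa5-deficient library 2 and 0.0285 with fold enrichment. For Dbx2 it was 5 of 6, and 4 with own-list ranks. Its promoter region (chromosome 15, 95653916 to 95655031) had percentiles of 25.6 and 22.8 in Hoxa5-deficient libraries and 45.4 and 14.4 in controls (−0.11, SE 0.353, limma adjusted p = 0.864). The controls there lay on either side of the Hoxa5-deficient libraries. The strongest Dbx2 regions were upstream and went opposite ways. At 95691176 to 95692312 percentiles were 56.6 and 59.7 in Hoxa5-deficient libraries and 78.7 and 81.2 in controls (−0.63, SE 0.122, limma adjusted p = 0.0693). At 95701485 to 95702969, chosen after its values were seen, they were 78.1 and 75.7 in Hoxa5-deficient libraries and 58.4 and 52.3 in controls (0.60, SE 0.129, limma adjusted p = 0.0802). Neither passed the threshold, although both separated the genotypes.

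**Figure D4:**
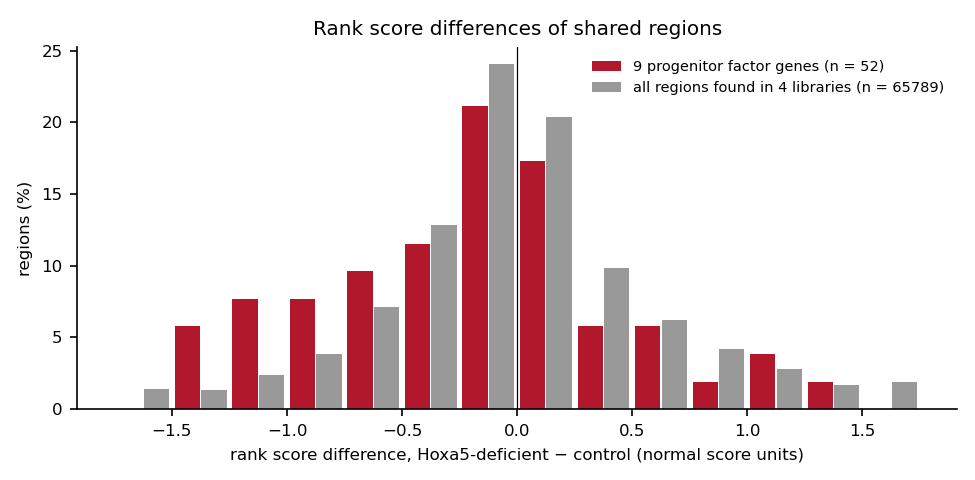
Share of regions in % (y axis) by rank score difference, Hoxa5-deficient minus control (x axis), for the 52 shared regions of the 9 genes (red) and all 65789 shared regions (grey); the end bins hold all values beyond them. Ranked among shared regions, a difference of −1 or less was found in 13.5% of member regions against 5.15% of all, and of 1 or more in 5.77% against 6.37%.

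Differences of −1 or less were found in 7 of the 52 regions (13.5%), against 5.15% of all shared regions, and of 1 or more in 3 (5.77%), against 6.37%. With own-list ranks 0 of the 52 reached −1 (2.12% of all) and 2 reached 1 (3.85%, against 5.35%). The share at −1 or less fell over all shared regions too, from 5.15% to 2.12%, so this cut is not alike in both rankings. With fold enrichment 6 reached −1 (11.5%, against 4.95%). Regions inside the genes or over their ends numbered 19, with a median score difference of −0.12 and no call. The 33 others had a median of −0.21 and held all 4 calls.

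Other genes of the spinal cord were described by the same counts. These lists, like the 9 members, were chosen with earlier results of these data known. Over all shared regions, 2.4% passed as higher and 1.65% as lower in Hoxa5-deficient libraries. With own-list ranks, 0 of all shared regions passed. General neural progenitor genes (12) had 77 shared regions, of which 0 passed as higher and 9 as lower in Hoxa5-deficient libraries, with a median score difference of −0.38. Dorsal progenitor genes (12) had 94, with 2 higher and 6 lower and a median of −0.25. Other ventral progenitor genes (12), such as Irx5 and Foxa2, had 75, with 2 higher and 4 lower and a median of −0.15. In the same order, regions of controls alone made up 11.7%, 9.18% and 3.1% of the regions of these lists, against 3.5% over all. Regions of Hoxa5-deficient libraries alone made up 4.67%, 6.28% and 4.69%, against 9.16%.

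Motor neuron markers (10) had 49 shared regions, with 1 higher and 0 lower and a median score difference of −0.04. They had 11 regions of Hoxa5-deficient libraries alone, of 126 (8.73%, against 9.16% over all), and 0 of controls alone, against 3.5% over all. Genes of the neurons that the other ventral domains give rise to (11) had 69 shared regions, with 0 higher and 1 lower and a median of −0.17. Of all their regions, 6.95% were of Hoxa5-deficient libraries alone and 6.42% of controls alone. Markers of cells outside the neural tube (10) had 28, with 0 higher and 1 lower and a median of −0.16. For these markers the shares of 1 genotype alone were 11.1% and 4.94%. With own-list ranks the medians of the 6 lists ran from −0.18 (general neural progenitor genes) to 0.07 (motor neuron markers). Foxd3 is in both the list of neurons of the other ventral domains and that of cells outside the neural tube. The 1 lower call of each list is the same Foxd3 region. The difference between lists was not tested.

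At the limit of 100 kb the regions were mostly weak. Just inside were the Irx3 region at 94.5 kb, a Nkx6-1 region at 92.9 kb found in all 4 libraries (−log10 p of 87.0 and 103 in Hoxa5-deficient libraries and 30.0 and 27.0 in controls) and an Irx3 region at 91.0 kb found in 1 library. Just outside were Irx3 regions at 100.4 kb, found in control library 2 alone, and at 108 kb, and a Pax6 region at 103 kb, both found in all 4. Beyond the limit, 57 regions had a member as their nearest gene.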

How the data were processed

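ATAC-seq was measured in 4 libraries, grouped by the genotype in their titles. Per the submitters' processing notes, the build was mm10 and the tools included MACS2 2.2.4, Bowtie2 2.3.4.3, FastQC 0.11.9 and SAMtools 1.9; parameters, and any shift of reads for Tn5, are not given in the sources used here. For each library the authors deposited a list of summits, each with a score, a ratio (fold enrichment), a −log10 p-value, a −log10 q-value and base positions. The lists end at a −log10 p of about 2.00. Each value is its own peak's, and served here to rank peaks or set a minimum. Read depth is unknown and was gauged from the lists.

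Regions were merged, assigned to 21887 protein-coding genes (RefSeq, GRCm38.p6) and classed by the libraries holding them. The highest −log10 p of a region was ranked among the regions in all 4 lists, and normal scores were compared with limma 3.58.1, threshold 0.05 after Benjamini-Hochberg adjustment. Named regions were those past the test, the 4 with the largest differences each way, the strongest in each gene, those over promoters and those of 1 genotype; further regions (Nkx6-1 24.0 kb upstream, the upper end of Nkx2-2, Pax6 56.7 kb upstream, upstream Dbx2 and a Dbx1 region in 3 libraries) were added after their values were seen. Members, lists and rules were chosen with earlier results of these data known. Promoters of 8 of the 9 genes were in the RefSeq table (9 starts).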

Additional observations from a re-analysis of the deposited data

How the results depend on the processing

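Counts of regions in all 4 libraries, in Hoxa5-deficient libraries alone, in controls alone and in 1 library of each moved with the settings. With −log10 q of 5 or more there were 31 in all 4 (34.4%, against 46.8% over all assigned regions). There were 5 in controls alone (5.56%, against 4.44%) and 5 crossed (5.56%, against 3.47%). Hoxa5-deficient libraries 1 and 2 and controls 1 and 2 then held 50, 65, 55 and 54 regions. Within 20 kb there were 30 in all 4 (35.7%, against 35.7%) and 3 in Hoxa5-deficient libraries alone (3.57%, against 8.72%). There were 5 in controls alone (5.95%, against 3.50%), with 49, 57, 62 and 52 per library. Taking any region within 100 kb, a setting chosen after the data were seen, gave 87 in all 4 (34.4%, against 33.0% of all regions). It gave 15 in Hoxa5-deficient libraries alone (5.93%, against 10.3%) and 14 crossed (5.53%, against 4.41%), with 151, 174, 154 and 154 per library. Equal interval numbers gave 13 in controls alone (8.72%, against 4.95%), and summit windows 14 in Hoxa5-deficient libraries alone (6.09%, against 8.81%). Requiring 50% of the region to be covered gave 14 in Hoxa5-deficient libraries alone (8.70%, against 11.9%) and 15 crossed (9.32%, against 5.47%). Leaving out 1 library at a time gave 57 to 61 in all of the remaining libraries (35.4% to 37.9%, against 36.3% to 38.0%). It gave 14 to 31 in Hoxa5-deficient libraries alone (8.70% to 19.3%, against 12.1% to 21.6%). Controls alone had 16 to 22 (9.94% to 13.7%, against 5.10% to 13.8%). The causes were not tested; fewer or more regions enter by construction.

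Limma calls among the members were 1 higher and 3 lower. They stayed at 1 and 3 with fold enrichment ranked (1.92% and 5.77%, against 3.4% and 2.3% of all shared regions). With −log10 q of 5 or more they were also 1 and 3, of 31 regions (3.23% and 9.68%, against 2.72% and 1.74%). They became 2 and 7 on the percentile scale (3.85% and 13.5%, against 5.06% and 3.98% of all shared regions). With any region within 100 kb they became 2 and 5 (2.3% and 5.75%, against 2.4% and 1.65%). They became 0 and 0 with ranks in the own list, with summit windows, with each library left out (0 to 0) and with the replicate block; 0 of all shared regions passed in these fits either. The labels do not say whether same-numbered libraries are paired. Deviations of same-numbered libraries correlated at r = −0.0012 over the shared regions, which cannot settle this. The block, with a lowest adjusted p of 0.101 (limma), removes a degree of freedom. In it 23 of the 52 regions (44.2%) had an unadjusted p under 0.05 (limma), against 26.5% of all. Among 19 named regions, uncalled differences reversed at Nkx2-2 +16.8 kb (0.0368 by fold enrichment, 0.0156 by own-list rank, and −0.335 to 0.0948 with 1 library left out), Dbx1 +3.2 kb (0.0285 by fold enrichment), Dbx2 +0.3 kb (0.0458 by own-list rank, and −0.586 to 0.361 with 1 left out) and the Nkx6-1 promoter (−0.113 to 0.194 with 1 left out).

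Depth is known only relative to background, and 2 libraries a genotype limit the test.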
